A study of Drosophila melanogaster and Drosophila mauritiana and Drosophila simulans with 22 samples.

Results

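COX6AL, COX6CL, COX7AL, ATPsynGL and ATPsynbetaL are paralogs of subunits of the mitochondrial respiratory chain and ATP synthase, and are described here in the testis. They were taken as the genes on a Drosophila array whose single symbol starts with COX or ATPsyn and ends in a capital L, for "like". The rule found 5 genes of the 6793 that carried 1 symbol, each spotted 2 times per array. In the probe table their Entrez Gene numbers are 246451 for COX6AL, 318868 for COX6CL, 40995 for COX7AL, 34054 for ATPsynGL and 39761 for ATPsynbetaL. Of these 5 genes, 4 had values on enough arrays to be tested. ATPsynbetaL did not pass that filter, since only 1 of the 3 sechellia hybrid arrays held a value for it, and it is described by its values.

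Cytochrome c oxidase, the last enzyme of the respiratory chain, passes electrons to oxygen and pumps protons across the inner mitochondrial membrane. Its small nuclear-encoded subunits, 6A, 6C and 7A among them, surround a catalytic core made from mitochondrial DNA. ATP synthase lets the protons flow back and makes ATP, with the beta subunit holding the catalytic sites and subunit g lying in the membrane part. Flies carry a standard gene for such a subunit, used across tissues, and in several cases a second copy transcribed in testes. In fly spermatids the mitochondria fuse into a large body, the nebenkern, which then elongates beside the growing tail.

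The study compared testis expression in 4 Drosophila species and in hybrid males from 3 crosses. Each of 22 arrays set amplified RNA from a pool of 200 testes, dyed Cy5, against RNA of whole D. melanogaster males, dyed Cy3, and no array had the dyes exchanged. D. melanogaster (strain 14021-0231.00), D. simulans (14021-0251.2) and D. sechellia (#12) had 3 arrays each, and D. mauritiana (14021-0241.1) had 4. The hybrids, 3 arrays each, all had mothers of the D. simulans strain (10 females with 15 males in a vial) and fathers of D. melanogaster, D. mauritiana or D. sechellia, after whom they are named here. The labels do not name the strain of the D. sechellia fathers, so the #12 arrays stand for that parent as a species and may be of another strain. All males were 4 days old and raised at 25 °C, and per the labels their accessory glands had been taken off the testes. The labels do not say whether the pools of a group came from separate cultures, so p-values measure the spread between these arrays, which may be technical.

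A level is given here as a log2 ratio of testis over whole male, after each array was centred on its median. A level of 1 thus means 2 times as much signal from testes as from whole melanogaster males, relative to the median gene. The melanogaster males were the reference for every species, so a difference between species in sequence match to the probes cannot be told apart from a difference in RNA. Likewise, fewer cells of a type and less RNA per cell cannot be told apart in whole testes. The melanogaster ratios also hold any effect of the dye and of the amplification, which cannot be told apart from tissue.

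Arrays held 13019 to 27648 values, and their number per group limits the precision. The sechellia arrays were the noisiest: the SD between duplicate spots was 1.66 to 2.46 there and 0.29 to 0.67 elsewhere, and their correlations across genes were 0.22 to 0.51. Array 2 of the sechellia hybrid correlated at 0.37 and 0.40 with the other arrays of its group, which correlated at 0.83 with each other. Melanogaster arrays 1 and 2 differed by 1.21 times the noise of their spots and simulans arrays 1 and 2 by 1.05 times, against 2.01 to 2.59 times for the other pairs in these groups. Such close pairs were also averaged as an alternative, sechellia hybrid arrays 1 and 3 (1.17 times) among them.

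In melanogaster testes all 4 tested paralogs were above whole males. COX6CL, the paralog of cytochrome c oxidase subunit 6C, had levels of 4.01, 3.59 and 4.06 on the 3 arrays, a mean of 3.88 ± 0.26 (SD, n = 3), or 14.8-fold. COX6AL, the subunit 6A paralog, had levels of 2.95, 3.08 and 3.12, a mean of 3.05 ± 0.09 or 8.26-fold. Both genes were thus high on each array with little spread. COX7AL, the subunit 7A paralog, had levels of 2.76, 2.78 and 3.02, a mean of 2.85 ± 0.15 or 7.22-fold. ATPsynGL, the paralog of ATP synthase subunit g, had levels of 2.45, 2.16 and 2.16, a mean of 2.26 ± 0.17 or 4.79-fold. Tested against 0 with limma, all 4 of 4 passed (adjusted p 3.59e-07 to 1.86e-05), beside 30.4% of all 5107 tested genes that were higher in melanogaster testes. COX6CL ranked 14th from the highest of these genes, COX6AL 100th, COX7AL 137th and ATPsynGL 334th.

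ATPsynbetaL, the paralog of the catalytic beta subunit, did not share this pattern, and its level goes against calling it a testis gene on these arrays. Its melanogaster levels were -0.22, -0.76 and -0.12, all at or a little below the median gene. Its simulans levels were 0.31, 0.05 and 0.18, and those of the melanogaster hybrid were -0.06, -0.80 and -0.22. Levels in these 3 groups lay within about 1 unit of 0. In the mauritiana hybrid the levels were -0.40, 0.32 and -0.91, and on the 2 mauritiana arrays with a value they were -0.95 and -0.12. The high levels of 5.54 and 2.08 on 2 sechellia arrays rest on noisy spots, since on the array with both spots read these stood at 4.57 and -0.42, a gap of 4.99. The only sechellia hybrid value was 1.07.

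Across the other groups the cytochrome c oxidase paralogs followed a similar order. COX6CL had levels of 2.47, 2.55 and 3.31 in simulans (mean 2.78), 2.40, 3.08, 2.49 and 2.54 in mauritiana (2.63) and 2.03, 2.63 and 2.76 in the mauritiana hybrid (2.47). These 3 groups overlapped each other and lay below all melanogaster arrays. Its sechellia levels were lower, at -0.54, 0.49 and 1.12 (mean 0.36), and those of the sechellia hybrid were 2.70, -0.28 and 2.46 (mean 1.63 ± 1.66, SD, n = 3), where array 2 alone was low. The melanogaster hybrid had the lowest levels, -0.57, -1.30 and -1.24, with a mean of -1.04 ± 0.41, below every array of every other group.

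COX6AL had levels of 1.82, 2.93, 1.89 and 2.61 in mauritiana (mean 2.31), 2.19, 2.33 and 1.22 in the mauritiana hybrid (1.91) and 2.26, 1.86 and 1.47 in simulans (1.86). These groups overlapped, and again lay below melanogaster. Array 3 of the mauritiana hybrid rested on spots at 2.26 and 0.17, a gap of 2.10 that was the widest for this gene. The sechellia hybrid gave 0.95 and 1.08 on the 2 arrays with a value (mean 1.02), sechellia gave -0.72, 1.31 and 0.77 (mean 0.46 ± 1.05, SD, n = 3), and the melanogaster hybrid gave -0.15, 0.25 and -0.46 (mean -0.12 ± 0.35). The last 2 groups overlapped.

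COX7AL reached the lowest value of the set. Its levels were 1.82, 1.79 and 1.73 in simulans (mean 1.78), 1.15, 1.79, 1.27 and 2.35 in mauritiana (1.64) and 0.44, 1.20 and 0.64 in the mauritiana hybrid (0.76). The ranges of simulans and mauritiana overlapped, and those of mauritiana and its hybrid met at about 1.2. Sechellia gave 0.56, -0.41 and -0.69 (mean -0.18), and the sechellia hybrid gave 1.24, -2.16 and 0.21 (mean -0.24 ± 1.74, SD, n = 3), with array 2 again far below the other two. The melanogaster hybrid gave -3.29, -1.98 and -2.57, a mean of -2.62 ± 0.66, so its testes held 0.163 times the whole-male signal. The low array 2 of the sechellia hybrid lay within that range.

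ATPsynGL differed from the others in mauritiana, where its levels of -0.58, 0.61, -0.86 and 0.43 (mean -0.10) were on both sides of 0. It stood at 0.97, 1.05 and 0.84 in simulans (mean 0.95), 0.79, 1.02 and 0.24 in the mauritiana hybrid (0.68) and 0.24 and -0.13 on the 2 sechellia hybrid arrays with a value (0.05). The simulans arrays lay above those of mauritiana. Sechellia gave -1.72, -0.31 and -0.77 (mean -0.94), and the melanogaster hybrid gave -0.97, -1.45 and -2.63 (mean -1.68 ± 0.86, SD, n = 3). These last 2 groups overlapped each other.

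**Figure D1:**
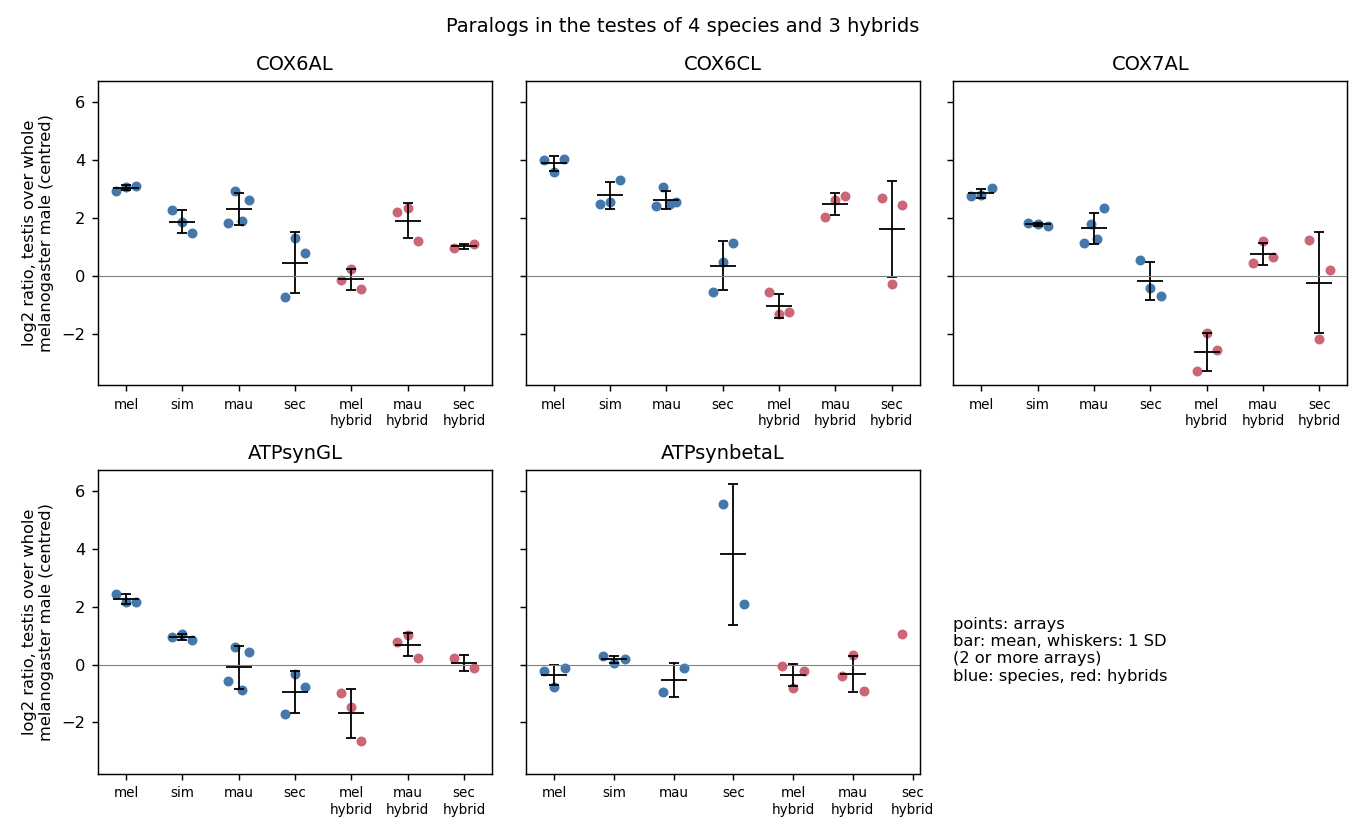
Levels of the 5 paralogs (log2 ratio of testis over whole melanogaster male, vertical axis) on each array of the 7 groups, with points for arrays, bars for means and whiskers for 1 SD where a group had 2 or more values. For 4 genes the melanogaster arrays lie highest and the melanogaster hybrid has the lowest mean, at -2.62 for COX7AL, while ATPsynbetaL stays near 0 outside the sechellia groups.

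The hybrids were then compared with their parents, at the mean of their log2 levels and one by one. In the melanogaster hybrid all 4 tested paralogs fell below the mean of the simulans and melanogaster parents, beside 19.6% of all tested genes. COX7AL fell by 4.93 ± 0.52 (SE) on the log2 scale, or 30.5-fold (limma, adjusted p = 2.65e-07), and ranked 54th from the lowest of the 5107 genes. COX6CL fell by 4.37 ± 0.50, or 20.6-fold (adjusted p = 7.98e-07). ATPsynGL fell by 3.29 ± 0.40, or 9.76-fold (adjusted p = 2.68e-06). COX6AL fell least, by 2.58 ± 0.40, or 5.96-fold (adjusted p = 4.13e-05). Arrays of the hybrid and its parents did not overlap for any of the 4, and how many of all genes share this was not counted.

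The loss was seen against each parent alone. Against the simulans parent, which gave these hybrids their mothers, COX7AL fell by 4.39, COX6CL by 3.81, ATPsynGL by 2.63 and COX6AL by 1.99, all 4 past the threshold (adjusted p 1.33e-05 to 0.00311), beside 13.9% of all genes. Against the melanogaster parent the 4 fell by 3.17 to 5.47, beside 20.1% of all genes. All 4 were therefore below both parents, as were 13% of all tested genes. Of the 1550 genes above whole males in melanogaster testes, a group that holds the 4 paralogs, 574 (37%) were lower than the simulans parent. The 4 calls held in each alternative that tested the gene.

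Markers of other cells and stages moved in the same hybrid. Of the late spermatid genes, 5 of the 15 fixed were tested, and 5 of 5 fell against the parental mean, the median difference being -3.93. Their median level per array was -2.66 to -1.82 in the melanogaster hybrid, against 1.67 to 2.32 in melanogaster and 1.05 to 1.44 in simulans. Among cup and comet genes, whose transcripts gather at the ends of elongating spermatids, 7 of 8 were lower, and among spermatocyte transcription regulators 2 of 4, beside the 19.6% of all genes that were lower. Neither of the 2 spermatogonial genes passed the test, and their differences were 0.79 and 0.86.

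Accessory gland genes went the other way. The 2 tested of 17 fixed were both higher in the melanogaster hybrid, beside 12.4% of all genes, with a median difference of 4.72. Their median level per array was 0.55 to 1.40 there, against -4.95 to -3.90 in melanogaster and -3.37 to -3.12 in simulans, although the tissue is labelled as free of these glands. Of the muscle genes 3 of 8 were lower, beside 19.6% of all genes, and none of 6 gut genes passed. The part of these markers in the result for the paralogs was not tested.

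**Figure D2:**
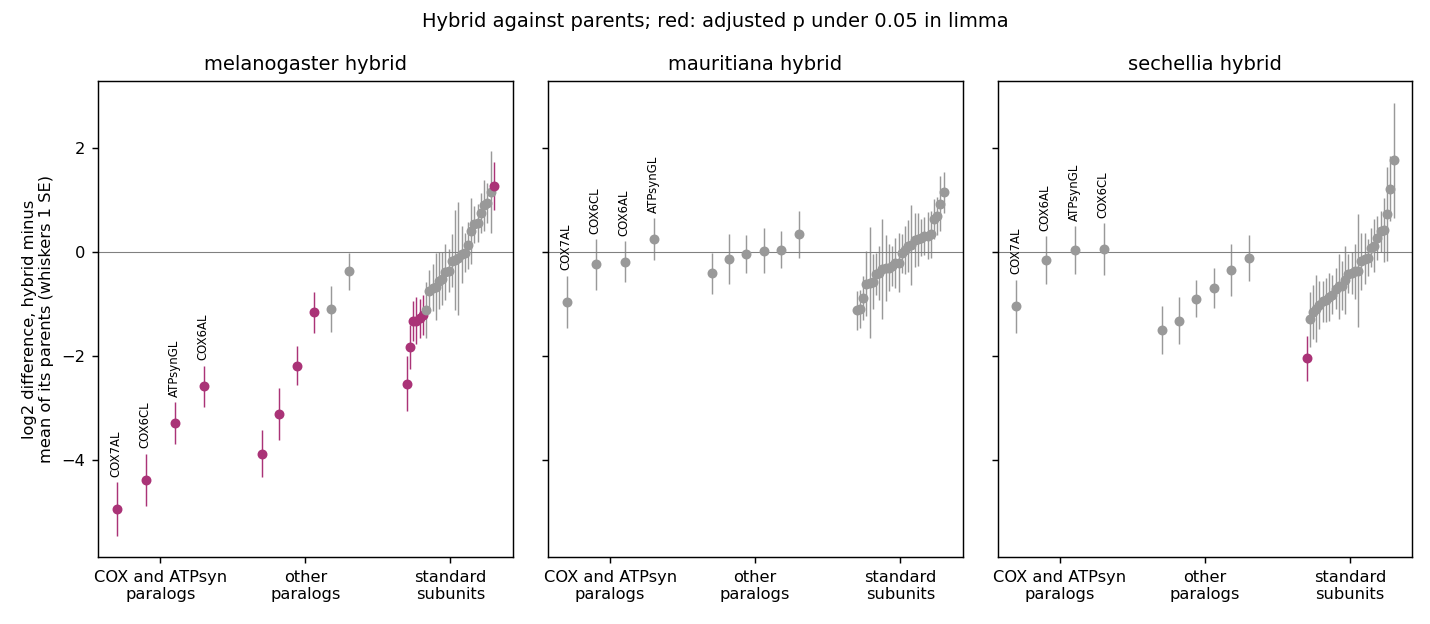
Difference in log2 level between each hybrid and the mean of its parents (vertical axis, whiskers 1 SE) for the 4 tested paralogs, 6 other respiratory chain paralogs and 28 standard subunits, with genes past an adjusted p of 0.05 in red. In the melanogaster hybrid the 4 paralogs lie at -4.93 to -2.58, and in the other hybrids they lie at -1.04 to 0.26.

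In the mauritiana hybrid 0 of 4 paralogs differed from the mean of the parents, beside 2.33% of all genes in either direction. The difference was -0.18 for COX6AL (95% interval -0.99 to 0.64), -0.23 for COX6CL (-1.25 to 0.79), -0.95 for COX7AL (-2.0 to 0.10) and 0.26 for ATPsynGL (-0.57 to 1.08). The intervals leave room for a fall of up to 2.0 units for COX7AL and of 0.57 to 1.25 for the others, which is less than each gene fell in the melanogaster hybrid. None of the 4 passed against the simulans parent, beside 3.6% of all genes, against the mauritiana parent, beside 4.5%, or against both, beside 0.764%. Of the 2 accessory gland genes 1 was higher in this hybrid too, beside 1.78% of all genes.

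In the sechellia hybrid 0 of 4 differed from the mean of the parents, beside 5.82% of all genes. The difference was -0.14 for COX6AL (95% interval -1.11 to 0.82), 0.06 for COX6CL (-0.98 to 1.10), -1.04 for COX7AL (-2.11 to 0.04) and 0.04 for ATPsynGL (-0.93 to 1.02). These intervals use 1 spread per gene, shared by all 7 groups. The SD of this hybrid alone was 1.66 for COX6CL and 1.74 for COX7AL, so their intervals may be too narrow. COX6AL and ATPsynGL had no value on array 2, so these estimates rest on 2 hybrid arrays. The other estimates moved with array 2: without it COX7AL was at -0.07 and COX6CL at 1.01, and neither passed. Late spermatid genes were lower in 2 of 5 cases in this hybrid, beside 4.78% of all genes, with array medians of -0.53 to 0.08, and their part was not tested.

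Against the simulans parent, COX7AL alone was lower in the sechellia hybrid, by 2.02 ± 0.60 (SE, adjusted p = 0.0291), beside 12.3% of all genes. Without array 2 the difference was -1.05 and did not pass, with an adjusted p of 0.154, the highest over its alternatives. That call was also lost without any 1 of the 3 simulans arrays, where the difference was -2.04 to -1.99. Against the sechellia parent 0 of 4 differed, beside 11.4% of all genes, and 0 of 4 were outside both parents, beside 1.35%. Without array 2 COX6CL became higher than the sechellia parent, with a difference of 2.22.

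The difference between the crosses was tested directly, within the one fit that accounts for the shared simulans arrays. The departure from the parents was lower in the melanogaster hybrid than in the mauritiana hybrid for all 4 paralogs, beside 17.4% of all genes. The gap was -4.14 ± 0.64 (SE) for COX6CL, -3.98 ± 0.66 for COX7AL, -3.54 ± 0.51 for ATPsynGL and -2.40 ± 0.51 for COX6AL, with adjusted p of 3.85e-05 to 0.00147. Against the sechellia hybrid it was lower for all 4 as well, beside 8.58% of all genes. There the gap was -4.43 ± 0.64 for COX6CL, -3.89 ± 0.67 for COX7AL, -3.33 ± 0.57 for ATPsynGL and -2.44 ± 0.56 for COX6AL (adjusted p 7.47e-05 to 0.00598). The COX6AL gap was no longer called when the closest array pairs were averaged, at a highest adjusted p of 0.0705. Between the mauritiana and sechellia hybrids the departures differed for 0 of 4, beside 4.5% of all genes, with intervals that reached from -1.61 to 1.46.

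The levels of the hybrids themselves gave the same order. The melanogaster hybrid was lower than the mauritiana hybrid for all 4, by 2.03 to 3.51 on the log2 scale, beside 18.2% of all genes. It was lower than the sechellia hybrid for COX6CL, COX7AL and ATPsynGL, beside 6.09%, and the COX6AL difference of -1.14 had an adjusted p of 0.145. Without sechellia hybrid array 1 the differences were -1.64 for COX7AL and -1.55 for ATPsynGL, and neither was called. The ATPsynGL call was also lost without melanogaster hybrid array 3, at -1.26, or sechellia hybrid array 3, at -1.92. Over all alternatives the COX7AL call held in 32 of 36 and the ATPsynGL call in 29 of 35, both being lost with the closest pairs averaged, and COX6AL was called in 4 of 35. The mauritiana and sechellia hybrids differed in 0 of 4, beside 17.5% of all genes.

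Among the species, the sechellia testes stood lowest for these genes. Against melanogaster all 4 were lower, beside 26.1% of all genes, with COX6CL at -3.53 ± 0.58 (SE), ATPsynGL at -3.19 ± 0.47, COX7AL at -3.03 ± 0.60 and COX6AL at -2.59 ± 0.46. The median of all genes in this comparison was itself -0.48. Against simulans all 4 were lower too, by 1.41 for COX6AL to 2.42 for COX6CL, beside 19.5% of all genes. Of these the COX6CL call held in all 35 alternatives, while the ATPsynGL call held in 32 of 34, the COX7AL call in 30 of 35 and the COX6AL call in 25 of 34. The ATPsynGL call was lost with the spread from these 2 species alone and with array weights. Single arrays decided the other 2 calls: COX6AL was not called without simulans array 1 (-1.21), simulans array 2 (-1.41) or sechellia array 1 (-0.82). COX7AL was not called without simulans array 1 (-1.94), simulans array 2 (-1.95) or sechellia array 3 (-1.70). The sechellia arrays carried the most noise, and these comparisons cannot be made without them.

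Mauritiana was higher than sechellia for COX6CL by 2.27 ± 0.54 (SE), for COX6AL by 1.86 ± 0.43 and for COX7AL by 1.82 ± 0.56, which is 3 of 4, beside 16.5% of all genes. The COX7AL call held in 25 of 35 alternatives and was lost without mauritiana array 4 (1.58), sechellia array 2 (1.70) or sechellia array 3 (1.56). ATPsynGL differed by 0.83, with a 95% interval of -0.08 to 1.75. Against melanogaster, ATPsynGL was the 1 of 4 that was lower in mauritiana, by 2.36 ± 0.44 (adjusted p = 0.00361), beside 4.44% of all genes. With the closest array pairs averaged its adjusted p was 0.053, the highest of 35 alternatives. Its standard gene ATPsynG was lower in mauritiana too, by 2.09 ± 0.58 (SE, limma, adjusted p = 0.0359). Without array 2 of the sechellia hybrid, which enters through the shared spread, COX6CL passed as well, at the same difference of -1.26.

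Simulans and melanogaster, and mauritiana and simulans, gave no call at this threshold. Simulans was 1.08 to 1.31 below melanogaster for the 4 genes, and 0 of 4 passed, beside 1.06% of all genes. All 4 passed when the spread was taken from these 2 species alone or when arrays were weighted. The 1.06% belongs to the main fit, and the share of all genes called under these 2 settings is not given here. The weights of arrays 1 and 2 of these species were 5.94 to 10.25, against 0.66 and 0.90 for array 3. With all arrays scaled to one spread the differences were -0.20 for COX6AL, 0.38 for COX6CL, -0.12 for COX7AL and -0.71 for ATPsynGL, so that COX6CL turned in direction. Mauritiana and simulans differed in 0 of 4, beside 11% of all genes. There the largest difference was that of ATPsynGL, at -1.05 (95% interval -1.96 to -0.14). Over the 6 pairs of species the 4 paralogs gave 12 calls of 24, with shares of all genes from 1.06% to 26.1% in the single pairs. Only the ATPsynGL call between mauritiana and melanogaster among them did not involve the sechellia arrays.

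**Figure D3:**
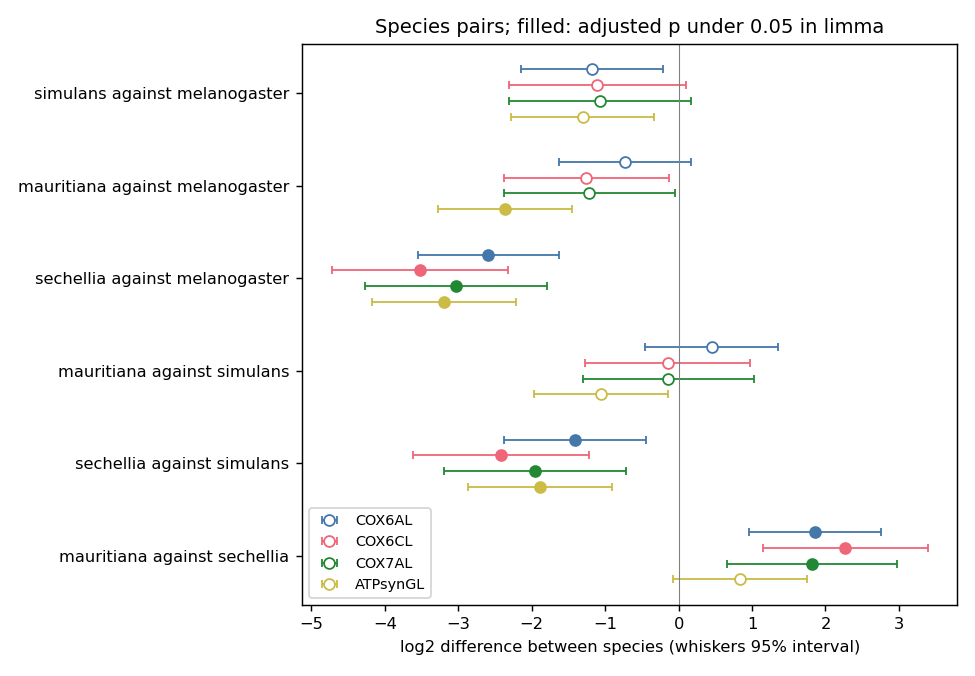
Difference in log2 level between species (horizontal axis, points with 95% intervals) for the 4 tested paralogs in the 6 species pairs, where filled points passed an adjusted p of 0.05. The 12 filled points include all 8 of sechellia against melanogaster or simulans, and those for simulans against melanogaster are open at -1.31 to -1.08.

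The standard subunits were set beside the paralogs. COX6A has the standard gene levy, COX7A, ATPsynG and ATPsynbeta keep the plain symbol, and no standard gene for COX6CL was listed in the probe table. In melanogaster testes levy had levels of -1.39, -1.57 and -2.27, and ATPsynbeta had -3.57, -3.66 and -4.41, both below whole males on every array. COX7A stood at -0.39, -0.49 and -0.09, and ATPsynG at -0.58, -0.29 and -1.72. Standard genes were thus at or below the median gene where 3 of their 4 paralogs were above it. Some standard genes differed between species as well. ATPsynG was lower than melanogaster in mauritiana by 2.09 and in sechellia by 2.73, and levy was lower in sechellia by 1.27. Those shares over all genes were 4.44% in mauritiana and 26.1% in sechellia. COX7A and ATPsynbeta were not called in either species.

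In the melanogaster hybrid levy stood at -0.98, -0.77 and -0.70, above every array of both parents. Its difference from the mean of the parents was 0.95 ± 0.38 (SE), with an adjusted p of 0.063. COX7A stood at 0.50, 0.55 and 0.27, also above both parents, with a difference of 0.76 and an adjusted p of 0.154. Neither passed, although both were on the opposite side from their paralogs. ATPsynG stood at -2.07, -1.72 and -2.18, with a difference of -1.12 and an adjusted p of 0.128. Its highest hybrid array, at -1.719, was about level with the lowest melanogaster array, at -1.715. How many of all genes lay outside every parental array was not counted. ATPsynbeta differed by -0.11, with an adjusted p of 0.957.

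The gap between paralog and standard subunit within each array does not depend on the centring of the array. For COX7AL minus COX7A it was -3.80, -2.53 and -2.84 in the melanogaster hybrid, against 1.95 to 3.27 on the 6 parental arrays, a change of -5.69. For COX6AL minus levy it was 0.83, 1.02 and 0.24 against 3.27 to 5.39, a change of -3.52. For ATPsynGL minus ATPsynG it was 1.10, 0.27 and -0.45 against 1.51 to 3.88, a change of -2.17. The hybrid and parental arrays did not overlap for any of these pairs, and how many other pairs of genes share this was not counted. Each of these 3 gave a two-sided exact permutation p of 0.0238, the smallest that 3 arrays against 6 allow, and an adjusted p of 0.0873 over the 11 tests made. None of the 11 passed after adjustment. At that smallest p the gaps of the melanogaster hybrid could not have passed on their own, so the adjusted result cannot decide on them.

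The other gaps changed less. ATPsynbetaL minus ATPsynbeta had a mean of 3.53 in the melanogaster hybrid and 3.68 in its parents (exact permutation p = 0.69). In the mauritiana hybrid the changes, taken against the pooled arrays of both parents, were -0.57 for COX6AL, -0.70 for COX7AL, 0.75 for ATPsynGL and -0.24 for ATPsynbetaL. In the sechellia hybrid they were 0.24 for COX6AL, -1.44 for COX7AL and 0.70 for ATPsynGL, and without array 2 the COX7AL change was -0.88. The exact permutation p of these 7 lay between 0.0833 and 1.

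**Figure D4:**
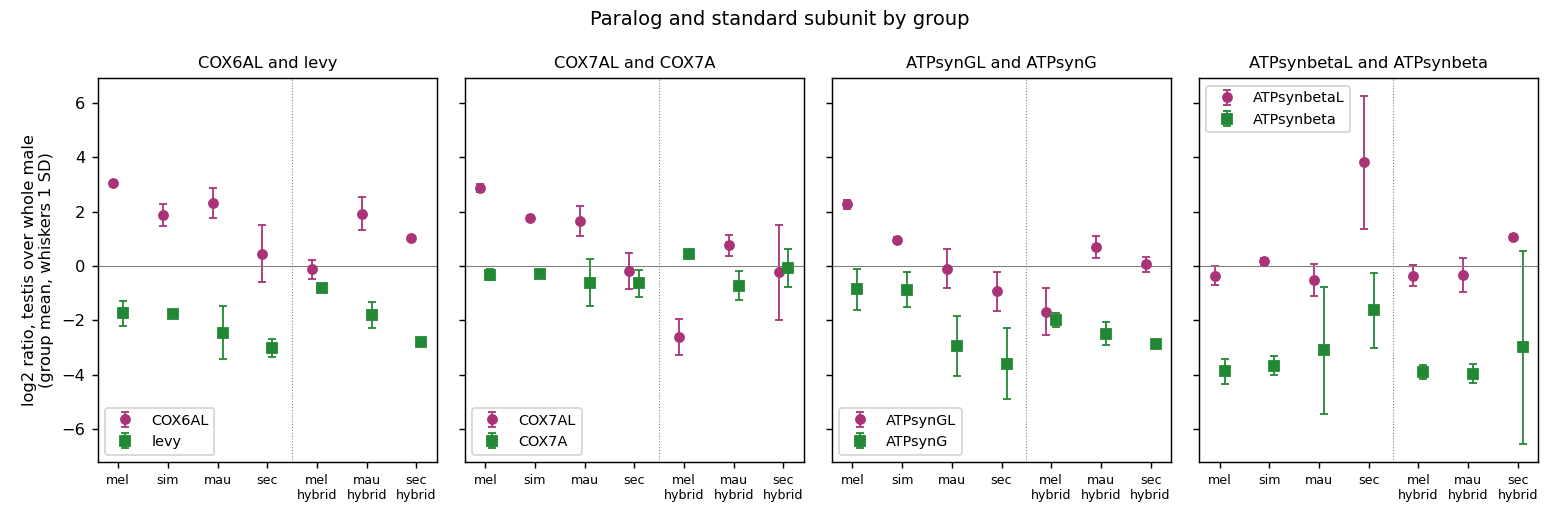
Group means of the log2 ratio of testis over whole male (vertical axis, whiskers 1 SD) for 4 paralogs and their standard subunits in the 7 groups. COX7AL lies above COX7A in the melanogaster and simulans groups and below it in the melanogaster hybrid, at -2.62 against 0.44.

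The wider respiratory chain showed where the 4 genes stood among their kind. In melanogaster testes 15 of 28 tested standard subunits were lower than whole males and 4 were higher, with a median of -1.01 beside 0.18 over all genes. Of all tested genes 13.9% were lower and 30.4% higher there. In the melanogaster hybrid 6 of 28 fell against the parental mean and 1 rose, the median being -0.25 beside 0.03 over all genes. The share that fell is close to the 19.6% of all genes, and 12.4% of all genes rose. Those with the smallest p were ND-B22, a complex I subunit, at -2.52 ± 0.53 (SE), ATPsynB, a stalk subunit of ATP synthase, at -1.82 ± 0.43, and ND-B17.2, another complex I subunit, at -1.32 ± 0.38. The gene that rose was ND-51, the complex I subunit that binds NADH, at 1.28 ± 0.46 (adjusted p = 0.0394). Of the 6 that fell, ND-B22 and ATPsynB were above whole males in melanogaster testes, at 1.27 and 1.21. ND-B17.2 and ATPsynD were below whole males there, at -1.60 and -1.84. ND-13A and ND-20 were not called there, at 0.69 and -0.33.

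Another 7 paralogs outside the naming rule were on the array, and 6 were tested. In melanogaster testes 4 of 6 were higher than whole males, SdhCL at 2.93 ± 0.37 (SE), ND-51L2 at 2.49 ± 0.41, ND-24L at 1.56 ± 0.29 and SdhAL at 1.53 ± 0.31, beside 30.4% of all genes. SdhCL and SdhAL are copies of subunits of succinate dehydrogenase, and ND-51L2 and ND-24L of the electron input module of complex I. In the melanogaster hybrid SdhCL fell by 3.87 ± 0.46, ND-51L2 by 3.11 ± 0.50, SdhAL by 2.18 ± 0.38 and knon by 1.16 ± 0.40 against the mean of the parents, which is 4 of 6, beside 19.6% of all genes. The paralog ND-51L2 thus fell where its standard gene ND-51 rose, as measured on the same arrays.

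ND-24L and SdhBL were not called against the mean of the parents. ND-24L was high in melanogaster testes, yet differed from the mean of the parents by -0.36 in the melanogaster hybrid (95% interval -1.11 to 0.38). SdhBL, a copy of the iron-sulfur subunit of succinate dehydrogenase, differed by -1.09 with an adjusted p of 0.0656, and was lower than the melanogaster parent, at -1.53 ± 0.51 (SE, adjusted p = 0.0264). The gene knon, which fell in the melanogaster hybrid, is a copy of an ATP synthase subunit known for its part in shaping the nebenkern, and was below whole males in melanogaster testes at -1.07 ± 0.33. In the mauritiana hybrid 0 of 6 of these paralogs and 0 of 28 standard subunits were called against the mean of the parents, beside 2.33% of all genes. In the sechellia hybrid 0 of 6 paralogs and 1 of 28 standard subunits were called, beside 5.82% of all genes in either direction. That gene was ATPsynB, lower by 2.03 ± 0.43. Cyt-c1L, the copy of cytochrome c1, was not tested, and its group means outside the sechellia groups were -0.31 to 0.15.

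The 4 paralogs varied together over the arrays. Pearson's r between their levels was 0.81 to 0.90 over 21 or 22 arrays, and 0.73 to 0.83 without the melanogaster hybrid arrays. These arrays share groups, and all levels on an array share its RNA, labelling and centring, so r is a description. Among the tested genes measured on at least 18 shared arrays, COX6CL ranked 10th by r to COX7AL, and COX7AL ranked 13th by r to COX6CL. Other members ranked further down, to 115th for COX7AL by r to COX6AL and 125th for ATPsynGL by r to COX7AL. The genes most like COX6CL were CG31870 (r = 0.95), CG32148 (0.95) and CG4477 (0.93). Those most like COX7AL were CG17567 (0.93), Mst87F (0.93), which is also on the late spermatid list, and CG4477 (0.92).

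For COX6AL the most similar patterns were those of Sec24AB (r = 0.93), Atg8b (0.91) and CG42446 (0.91), and for ATPsynGL those of CG1631, CG18063 and pim (each 0.91). CG4477 was the only gene named for 2 of the paralogs. Without the sechellia arrays r was 0.89 to 0.97 for these 12 pairs, and without the melanogaster hybrid it was 0.83 to 0.93.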

How the data were processed

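Log2 ratios of testis over whole male were used as the authors deposited them. Their scanner, background correction and normalization are not given in the sources used here, and the log base was inferred from the values: of 4 times 2 raised to ratios of size 3 to 8, 8.01, 12.5 and 12.6 percent lay within 0.001 of a whole number on the sechellia arrays, and at most 0.69 percent elsewhere. Array rows took gene symbols from GEO's platform annotation: of 27648 rows, 15116 had 1 symbol, 102 several and 12430 were not listed. Each array was centred on its median and the rows of a gene were averaged.

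Group means were fitted with limma 3.58.1 in R 4.3.3 to all 22 arrays, for the 5107 genes measured on 2 or more arrays in all 7 groups. Each gene had 1 spread shared by all groups, so errors and intervals may be too narrow for the noisier sechellia and sechellia hybrid arrays. Genes were called at a Benjamini-Hochberg adjusted p under 0.05 over all tested genes. Gaps between paralog and standard subunit were tested with exact permutations in scipy 1.17.1 and adjusted over 11 tests. Both were tested on simulated data. The permutations pooled all arrays of both parent species as one set, although parents can differ in the gap. For COX7AL minus COX7A it was 3.11 to 3.27 in melanogaster and 1.95 to 2.19 in simulans. The members, gene lists and tests were chosen with earlier results of these data known. Named genes were the members, their standard genes, up to 3 genes per direction with the smallest p from the standard and other paralog lists in each hybrid against the mean of its parents, and the 3 genes with the highest r to each member. The other standard subunits that fell in the melanogaster hybrid were named as well. Marker lists of testis somatic (1 tested gene), fat body (3) and gut cells (6) gave 0, 1 and 0 calls in the melanogaster hybrid against the mean of its parents. Same-numbered arrays deviated together, with each r over 0.1, in melanogaster and simulans (0.13 to 0.21) and in sechellia and the mauritiana hybrid, from the data and not from the labels. No chromosome positions or sequences are given, since no genome was used here.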

Additional observations from a re-analysis of the deposited data

Results flagged for a closer look

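The departure of the melanogaster hybrid from its parents differed from that of both other hybrids in the limma fit for each tested paralog. The difference in log2 departure between the melanogaster and mauritiana hybrids was -2.40 for COX6AL, -4.14 for COX6CL, -3.98 for COX7AL and -3.54 for ATPsynGL. Between the melanogaster and sechellia hybrids it was -2.44 for COX6AL, -4.43 for COX6CL, -3.89 for COX7AL and -3.33 for ATPsynGL. Without array 2 of the sechellia hybrid the latter were -2.44, -5.38, -4.86 and -3.33. In 1 of 14 sets of 4 mauritiana arrays an array stood far from the other three: SdhBL was at -2.02 on array 3, where its spots read -0.41 and -3.62. Chance alone marks about 1 in 20 such sets.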

How the results depend on the processing

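Of 99 single values, 3418 repeats under alternatives kept their direction and side of the threshold in 3325 cases, lost a call in 64 and gained one in 29. No called value changed sign, and 66 uncalled ones did. Requiring a value on all arrays left COX6CL and COX7AL as the only tested members, and so gave 2 calls in melanogaster testes, 2 in the melanogaster hybrid against the mean of its parents, 2 against both parents, 6 over the species pairs, 4 over the pairs of hybrids and 4 over the differences between hybrids. Without centring, COX7AL became the 1 call in the sechellia hybrid against the mean of its parents, and the median of all genes there moved from -0.02 to -0.43, in the melanogaster hybrid from 0.03 to -0.17. With the closest array pairs averaged, 0 of the gaps between paralog and standard subunit had an exact permutation p under 0.05, in place of 3, since fewer arrays remained. Leaving out 1 array gave 0 to 4 such gaps, 10 to 13 calls over species pairs and 5 to 7 over pairs of hybrids. The count of gaps was 0 without any 1 melanogaster hybrid array. For the gaps of that hybrid this was fixed in advance, since 2 arrays against 6 allow no exact permutation p under 0.0714. With the replicate number as a block there were 11 calls over species pairs in place of 12, the COX7AL call between mauritiana and sechellia being lost, and 4 in the melanogaster hybrid against the mean of its parents. The block changed no other call of the 4 paralogs. The averaging of sechellia arrays 2 and 3, which differed by 0.96 times their spot noise, was added after seeing the data, and so was a second look without sechellia hybrid array 2. Depth is unknown for arrays, and 3 or 4 per group limit what could be called.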
